A study of Mus musculus with 2 samples.

Results

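Blood vessel cells and macrophages of the embryonic mouse telencephalon were read from 1 single cell RNA library. They were chosen by the UMIs of 6 marker genes, a UMI (unique molecular identifier) being the tag that marks 1 caught transcript molecule. A cell barcode of this library was an endothelial member when it held at least 3 UMIs of Cdh5, Cldn5 and Pecam1 together and none of Csf1r or C1qb. It was a macrophage member when it held at least 3 UMIs of Csf1r, C1qb and Fcer1g together and none of Cdh5 or Cldn5. Both arms also required at least 2500 UMIs in the cell and under 10% of them from 7 globin genes. Of 14283 barcodes, 11282 were within the UMI and globin limits, 31 were endothelial members (0.275%, 95% interval 0.187-0.39%) and 65 were macrophage members (0.576%, 0.445-0.734%). A single barcode met both rules, so 95 cells belonged to either arm, and 11187 cells within the limits belonged to neither. All 20110 barcodes of the series came from 2 libraries, and the other library is not used below for any level.

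The library came from telencephalic vesicles of 3 wild-type embryos of 2 litters, labelled E12 (E11.5 to E12 in the methods), of the C57BL/6J strain, pooled after enzymatic dissociation with a neural tissue kit. About 20000 cells were put into a 10x Genomics 3′ v3.1 reaction. Both sexes were present in the pool, since 15 endothelial members held Xist UMIs without UMIs of 4 Y-linked genes and 7 held the reverse, against 25 and 21 macrophage members. The second library held septal explants of 8 PGKCre;Rosa26YFP embryos (E11.5) and 4 Dbx1Cre;Rosa26tdTomato embryos (E12.5). The libraries shared 1 barcode, which was no member. With 1 library of pooled embryos there were no replicates, so no test was made: all intervals are exact 95% intervals for counting error only, and cells were not treated as replicates.

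Vessels enter the telencephalon from the perineural plexus at mid-gestation, drawn by vascular endothelial growth factor (VEGF) from the neuroepithelium. Wnt ligands of neural progenitors then start the blood-brain barrier programme in these vessels, in which glucose transport rises and the fenestral protein Plvap is later lost. Macrophages reach the brain from the yolk sac, and those in the parenchyma become microglia, while those at its borders (meninges, ventricle, perivascular space) keep genes such as Mrc1 and Lyve1.

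The gate genes describe how the members were chosen and are no finding. Among the 31 endothelial members the gate sum ranged from 3 to 156 UMIs with a median of 25, and Cdh5 (VE-cadherin) ranged from 0 to 64 (median 9), Cldn5 (claudin 5) from 0 to 41 (median 7) and Pecam1 (CD31) from 0 to 51 (median 5). Among the 65 macrophage members the sum ranged from 3 to 169 with a median of 36. Fcer1g, the shared signalling chain of Fc receptors, was present in all 65 (1 to 111, median 20), whereas C1qb was present in 46 (0 to 56, median 12) and Csf1r, the receptor for colony stimulating factor 1, in 45 (0 to 18, median 3). In the mm10 build, Cdh5 lies on chromosome 8 (104101625-104144511), Cldn5 on chromosome 16 (18776847-18778262) and Pecam1 on chromosome 11 (106654217-106750628, minus strand). C1qa (136895917-136898803), C1qb (136880129-136886187) and C1qc (136889804-136893065) are neighbours on the minus strand of chromosome 4.

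Just inside the thresholds, 4 endothelial members had a gate sum of exactly 3, and 1 of these held 3 or more UMIs of 9 further endothelial genes (Kdr, Flt1, Tek, Tie1, Emcn, Esam, Egfl7, Erg and Sox17). Just outside, 38 cells had a sum of 2, of which 6 held 3 or more UMIs of these 9 genes, with a median of 0. On the macrophage side 1 member had a sum of 3 and 6 cells a sum of 2, and none of these 7 held 3 UMIs of Tyrobp, C1qa and C1qc. A further 3 cells reached the endothelial sum but held Csf1r or C1qb, and 4 reached the macrophage sum but held Cdh5 or Cldn5. Among cells with no UMI of the gate, 81 held 3 or more UMIs of the 9 genes, but in 35 of them all came from 1 gene, and only 1 had 5 or more of the genes.

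Checked against further markers, the members were not of 1 kind in either arm, and the kinds below were divided after the values were seen. In the endothelial arm 25 members held at least 3 UMIs of the 9 further genes and fewer than 3 of Itga2b and Gp9, and they are called the endothelial core. Each of these 25 held at least 4 of the 9 genes (median 8), with between 4 and 303 UMIs of them (median 121). None of the 9 genes is in the gate, but since they chose the core, their own shares and levels in it, given below, describe that choice and are no finding. The core was uneven, as 3 of its members held only 4, 10 and 13 UMIs of the 9 genes at 27785, 33216 and 36030 UMIs. The label was not borne out for the other 6, of which 4 held under 3 UMIs of the 9 genes and 2 held 4 and 6 of them beside platelet genes. Of these, 1 cell of 131218 UMIs held 59 Sox2 UMIs and had entered through 3 Pecam1 UMIs, 1 cell of 110457 UMIs held 159 Col3a1 and 109 Col1a2 UMIs beside 6 of Cdh5, and 2 cells of 14718 and 8255 UMIs held 46 and 18 UMIs of 7 neural genes and none of the 9. The remaining 2, of 23028 and 3014 UMIs, held the platelet glycoprotein genes Itga2b and Gp9, and the first of them is the cell that both rules took.

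In the macrophage arm 46 members held a UMI of C1qa, C1qb or C1qc, which encode the chains of complement C1q, and are called C1q members. A further 13 held no C1q UMI but at least 2 of Mpo, the myeloperoxidase of granulocyte precursors. Another 5 held no C1q UMI but at least 3 of Pf4, platelet factor 4, and 1 cell of 19216 UMIs met none of these. C1qb is a gate gene and all 46 C1q members held it, so it cannot check their name. Of the chains outside the gate, 45 of the 46 held a UMI of C1qa or C1qc and 38 held 3 or more. The single member with neither, of 62467 UMIs, held 2 C1qb UMIs, no Tyrobp UMI and 74 UMIs of 7 neural genes. For the 19 members without C1q the name macrophage was not borne out.

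The members were deep cells. Endothelial members held a median of 27785 UMIs (3014-131218) and macrophage members a median of 17739 (3041-133748), against 9885 in the cells of neither arm. Summed over members this gave 1100375 and 1539716 UMIs, of which the deepest member held 11.9% and 8.69%. Levels are given as CPM, the UMIs of a gene per 1000000 UMIs summed over a group, so deep cells weigh more. Mitochondrial genes took a median of 3.42% and 3.11% of the UMIs (2.69% in other cells). Neural RNA was present in some members: 3 endothelial and 2 macrophage members reached the median CPM of 7 neural genes in neural reference cells, 1 of them in the core and 1 among the C1q members. A further 4 core members stood just under it (1746, 1638, 1512 and 1354 CPM), among them the 3 with the fewest UMIs of the 9 endothelial genes, and the next had 756 CPM. At 1000 CPM or more there were 5 of 25 core and 4 of 46 C1q members. The median of these genes was 144 CPM over endothelial and 64.8 CPM over macrophage members, against 1837 CPM over the 9794 neural reference cells (cells with 3 or more UMIs of Sox2, Hes5, Fabp7, Tubb3, Dcx and Stmn2 and none of the gate genes). Doublets were kept in, and Scrublet marked 2 endothelial members, both in the core, and 9 macrophage members. UMIs of Xist and of Y-linked genes, 3 or more of each, were found together in 5 of 31 endothelial and 6 of 65 macrophage members, against 224 of 9794 neural reference cells. The part of doublets and free RNA in the levels below was not tested.

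For the comparison across genes, a gene entered when it reached 20 CPM in the arm or in the other cells, and it was counted as higher or lower past a 4-fold difference in CPM, with a group without UMIs set to 3 UMIs. The rule itself separates the members from the other cells, so these counts are a description. In the endothelial arm 563 of 8079 genes compared were at least 4 times higher than in other cells (6.97%) and 152 were at least 4 times lower (1.88%). In the macrophage arm the counts were 535 of 8096 (6.61%) and 147 (1.82%). Restricted to the core they were 657 of 8112 (8.1%), and restricted to C1q members 589 of 8146 (7.23%). A gene absent from other cells enters only through the arm, and then has to differ. For this reason each count below stands beside the size of its list. No gene of the border macrophage, cytokine and other myeloid lists could enter through other cells, where these lists summed to 14.3, 15.7 and 9.75 CPM. The same holds for the antibody receptor and complement list (4.82 CPM) and the megakaryocyte list (1.96 CPM). Few genes could enter through other cells in the lists of endothelial identity, endothelial transcription factors, VEGF and angiopoietin receptors and tip cells. These lists summed to 35.0, 57.1, 41.9 and 60.1 CPM in other cells. Macrophage identity and microglia genes summed to 50.3 and 58.3 CPM there, so few of them could either. The counts of lower genes moved with the weighting of cells, and with every cell weighted alike they were 276 in the endothelial and 614 in the macrophage arm. Without the members at 1000 CPM or more of the 7 neural genes, which left 22 and 57 members, they were 457 and 664, and the counts of higher genes were 726 and 710.

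**Figure D1:**
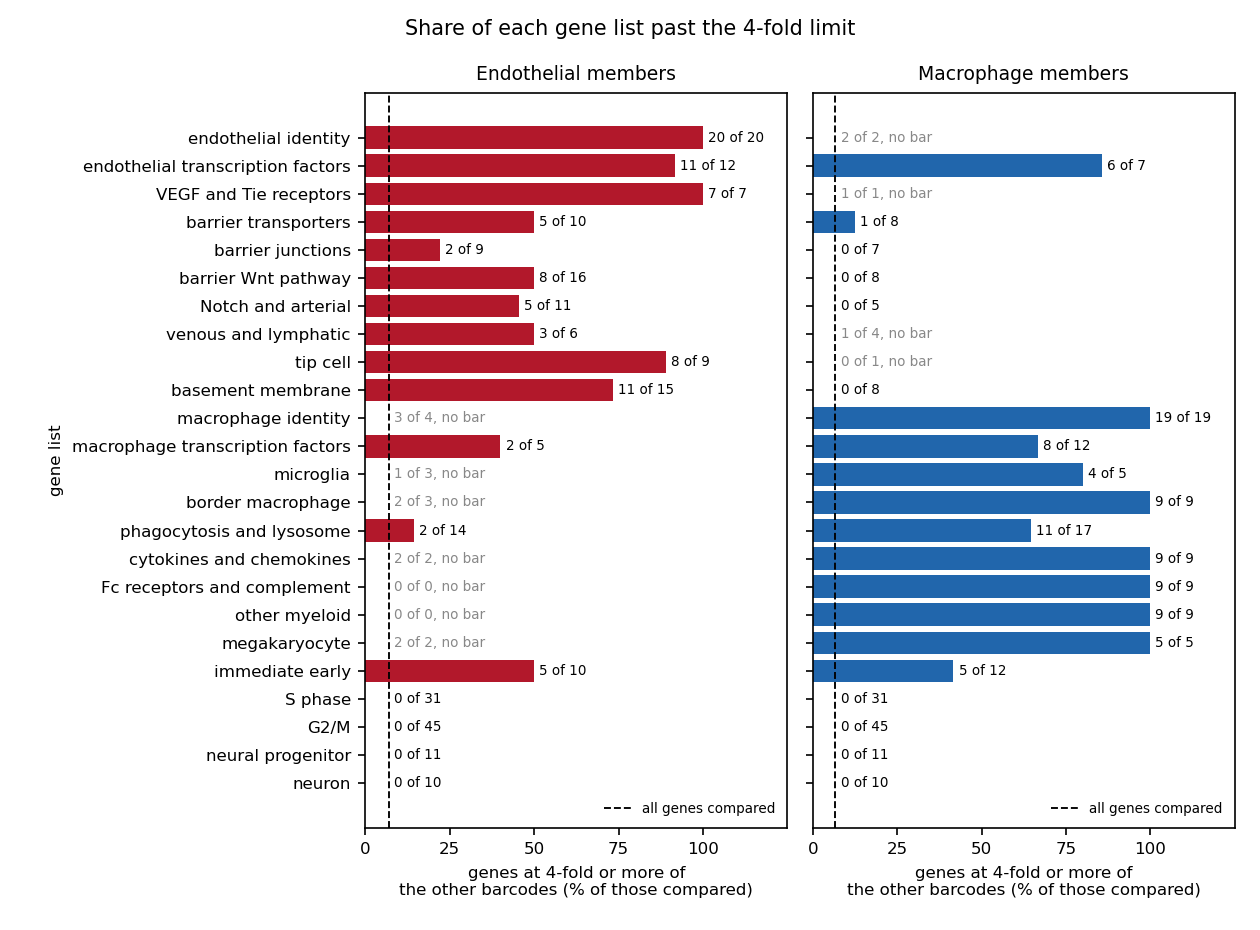
Share of each gene list (horizontal axis, % of the genes of the list compared) that was at least 4 times higher in the endothelial arm and in the macrophage arm than in the cells of neither arm, with the number of genes compared beside each bar and no bar for lists with fewer than 5. The dashed lines mark the share over all genes compared, 6.97% and 6.61%, and the bars of the cell cycle lists are at 0.

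Endothelial identity genes outside the gate were high in most of the core. All 20 genes of this list were compared and at least 4 times higher, and in sum they reached 5265 CPM in the arm (5131-5403) against 35.0 CPM in other cells. With so low a sum in other cells nearly all of them entered through the arm, so the count is a description only. The UMIs that lay behind the sum can be seen cell by cell. Ramp2, a partner of the adrenomedullin receptor, was found in all 25 core members with 1 to 90 UMIs (median 16), and Cd34, a sialomucin of capillaries, in all 25 with 2 to 47 (median 18). Ramp2 and Cd34 took no part in choosing the core. Emcn, the endothelial sialomucin endomucin, and Egfl7, a secreted protein of young vessels, did, and were found in 74.2% and 77.4% of all 31 members, at 447 and 371 CPM. Egfl7 was also present outside the arm, with 8.09 CPM in other cells.

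The receptors for VEGF and angiopoietin all passed the 4-fold mark, 7 of 7. The list summed to 41.9 CPM in other cells, led by Nrp1, so most of its genes entered through the arm. Kdr, Flt1, Tek and Tie1 among them are of the 9 genes that chose the core. Kdr (VEGF receptor 2, chromosome 5, 75932827-75978458, minus strand) was found in 96% of core members with 0 to 73 UMIs (median 21), and its summed level there was 656 CPM (601-714) against 0.854 CPM in other cells. Flt1 (VEGF receptor 1, chromosome 5, 147561604-147726011, minus strand), which traps the ligand, was found in every core member with 1 to 102 UMIs (median 28), at 971 CPM (904-1041). In the 20 core members under 1000 CPM of neural genes Kdr was at 749.9 and Flt1 at 1141 CPM. When every cell was thinned to 2500 UMIs, so that depth no longer differed, Kdr was found in 64.5% of all 31 endothelial members (45.4-80.8%, unthinned 83.9%) and Flt1 in 48.4% (30.2-66.9%, unthinned 83.9%), and in 0.143% and 0.0408% of neural reference cells. Flt4 (VEGF receptor 3) was sparser, with 0 to 8 UMIs (median 1) in core members and 64.2 CPM. The angiopoietin receptor Tek and its relative Tie1 reached 92.6 CPM (0 to 12 UMIs, median 1) and 145 CPM (0 to 20, median 3). The co-receptors Nrp1 and Nrp2 were shared with other cells: their levels in the arm were 244 and 72.7 CPM, which was 10.9 and 4.22 times the levels in other cells.

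Transcription factors of endothelium followed the same order. Of 16 on the list 12 were compared and 11 passed the mark. The SoxF factors that specify vessels, Sox7, Sox17 and Sox18, reached 71.6, 101 and 125 CPM in the core and at most 0.0919 CPM in other cells. The ETS factors Erg, Ets1 and Fli1 were found in 80%, 88% and 88% of core members, with medians of 3, 10 and 12 UMIs, where Erg, like Sox17, had chosen the core. Among them Erg and Ets1 were at 0 and 3.38 CPM in C1q members, while Fli1 was at 204 CPM there and at 123 CPM in the mesenchyme reference (587 cells with 5 or more UMIs of Col1a2, Col3a1 and Pdgfrb). Mef2c was at 278 CPM in the core and at 439 CPM in C1q members. Klf2, a factor induced by blood flow, was found in 72% of core members (0 to 35 UMIs, median 3) at 330 CPM, against 1.5 CPM in other cells. Its relative Klf4 was the factor compared that did not pass, with 25.5 CPM in the arm and 7.27 CPM in other cells. The list was not exclusive to vessels, and 6 of 7 of its genes compared in the macrophage arm passed there too, Fli1, Mef2c and Klf2 among them.

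**Figure D2:**
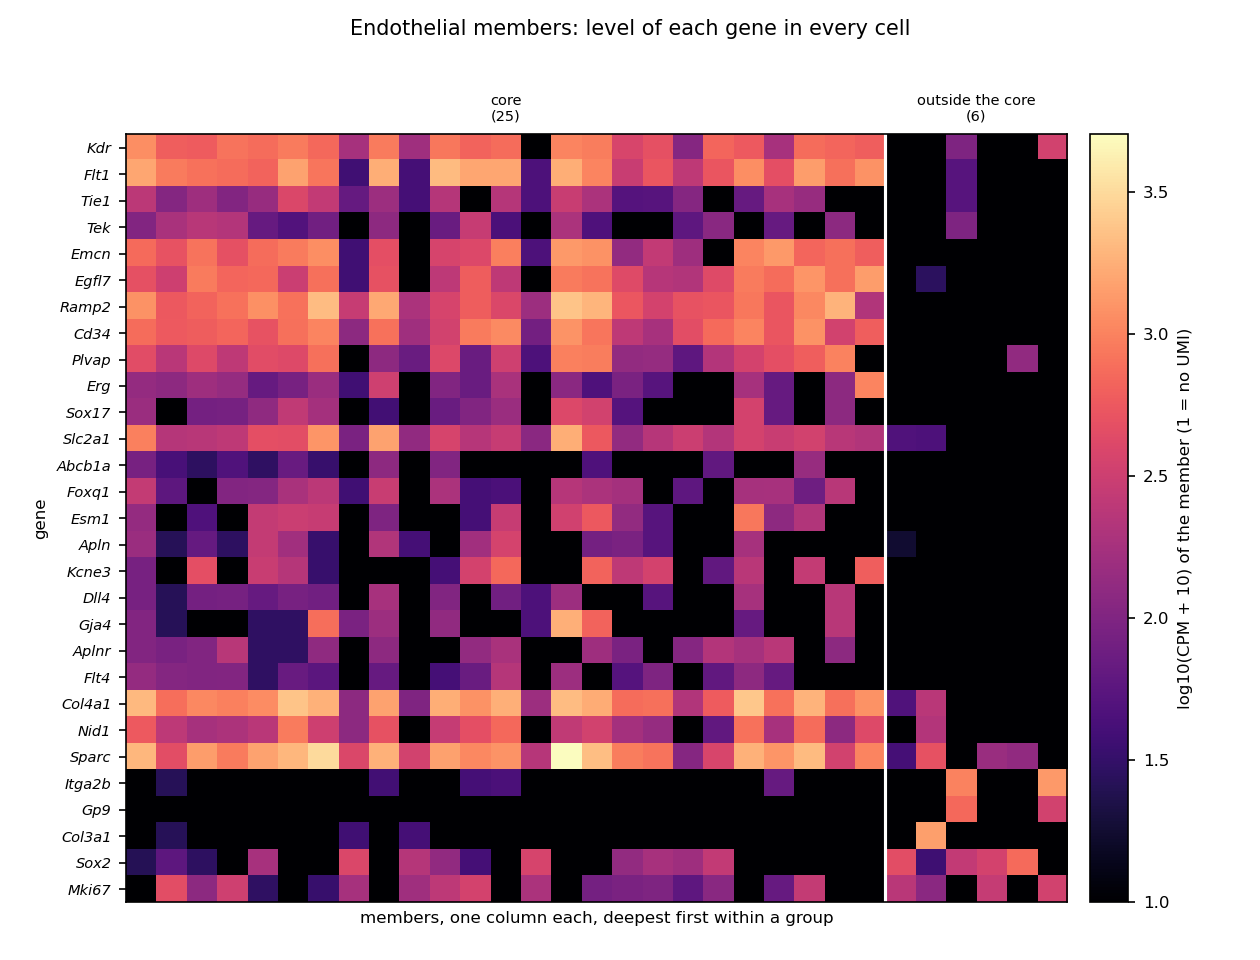
Level of 29 genes (rows) in each of the 31 endothelial members (columns, deepest first within the 25 core and the 6 other members), as log10 of the member's CPM plus 10, where 1 means no UMI. Kdr, Flt1, Emcn and Col4a1 are filled across nearly all core columns, whereas Esm1, Gja4 and Abcb1a are filled in part of them, and the 6 columns outside the core show Itga2b, Col3a1 or Sox2 in their place.

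Genes of the blood-brain barrier were split. Of 14 transport genes 10 were compared and 5 passed. Slc2a1, the glucose transporter GLUT1, was found in every core member with 1 to 62 UMIs (median 7), and its level of 483 CPM (436-533) was 9.16 times that of other cells (8.26-10.1). Thinned to 2500 UMIs it was found in 60% of core members (38.7-78.9%), 10.9% of neural reference cells and 8.70% of C1q members. The amino acid transporter Slc7a5, the efflux transporter Abcg2 and the iron exporter Slc40a1 reached 114, 121 and 48.2 CPM in the arm. The drug efflux pump Abcb1a was sparse: 48% of core members held it, with at most 5 UMIs (32.1 CPM, 21.0-47.1).

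Late barrier transporters were low or without UMIs. Mfsd2a, the lysolipid carrier that marks a closed barrier, was at 22.7 CPM in the arm and 13.5 CPM in other cells. After thinning it was found in 4% of core and 3.20% of neural reference cells, and the part of free RNA in these shares was not tested. Slco1c1, Slc22a8 and Slco1a4, carriers of hormones and drugs, had 4, 1 and 0 UMIs in the whole arm. The fenestral protein Plvap was instead found in 92% of core members (0 to 33 UMIs, median 9) at 346 CPM (307-389), against 1.74 CPM in other cells. Since Slc2a1 was found in every core member and Plvap in nearly all, their overlap follows from these shares.

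Of 12 junction genes 9 were compared and 2 passed, F11r (junctional adhesion molecule A, 105 CPM against 1.05) and Cgnl1 (paracingulin, 65.4 CPM against 6.36). Tjp1 (ZO-1) and Cdh2 (N-cadherin), which neuroepithelium also uses, were 2.46 and 1.84 times higher than in other cells, at 212 and 1140 CPM, and occludin (Ocln) had no UMI in any member. On the list for Wnt signalling at the barrier 8 of 16 genes compared passed, of 18 in all. The forkhead factors Foxq1 and Foxf2 were found in 76% and 64% of core members (medians 3 and 1 UMIs, highest 17 and 8), at 115 and 53.1 CPM there against 0.205 and 0.719 CPM in other cells. The receptor parts Fzd4, Fzd6 and Adgra2 (Gpr124) and the Wnt target Apcdd1 also passed, with Apcdd1 at 101 CPM in the core (0 to 23 UMIs, median 2). The co-factor Reck and the common target Axin2 were at 0.901 and 0.895 times the level of other cells, and Lef1 was at 2.17 times.

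Arterial and venous genes were found in overlapping sets of cells. Of the 16 Notch and arterial genes 11 were compared and 5 passed, namely Notch4, Dll4, Jag2, Gja4 and Unc5b. The Notch ligand Dll4 was found in 60% of core members with at most 6 UMIs (56.8 CPM, 41.6-75.8). The arterial gap junction gene Gja4 (connexin 37) was found in 52%, but a single member held 50 of its UMIs, which was 40% of the total. Gja5, the later arterial connexin, had 5 UMIs in the arm. The venous and capillary apelin receptor Aplnr was found in 68% (0 to 12 UMIs, median 2), and 11 core members held Dll4 and Aplnr together, 4 Dll4 alone, 6 Aplnr alone and 4 neither. Much of this overlap follows from the share of each gene, depth was unequal, and a link between them was not tested. Nr2f2 (COUP-TFII), a venous factor that neural and mesenchymal cells also express, was at 115 CPM in the arm and 244 CPM in other cells. On the short venous and lymphatic list 3 of 6 genes compared passed (of 8), which were Aplnr, Flt4 and Nrp2. The lymphatic genes Prox1 and Lyve1 had 3 and 0 UMIs.

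Tip cell genes, which mark the leading cells of sprouts, had UMIs in the core. Of 11 on the list 9 were compared and 8 passed. The list summed to 60.1 CPM in other cells, led by Ednrb, so most of its genes entered through the arm. The count sets the arm against other cells and does not separate tip cells from other endothelium. Esm1 (endocan) was found in 60% of core members with 0 to 15 UMIs (median 2), and at 137 CPM (113-165) it contrasted with 0.0108 CPM in other cells. Kcne3, a potassium channel subunit, and Apln, the ligand of Aplnr, were each found in 60%, with up to 25 and 14 UMIs. Pdgfb, the ligand that recruits pericytes, was found in 88% (0 to 14 UMIs, median 4) at 145 CPM (120-173). Esm1 and Kcne3 were found together in 12 core members and were both missing from 7. Esm1 and Aplnr were also found together in 12, Esm1 alone in 3, Aplnr alone in 5 and neither in 5. Genes found in most core members overlap by their shares, and links within these pairs were not tested. The exception among the genes compared was the endothelin receptor gene Ednrb, at 0.557 times the level of other cells.

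Basement membrane genes gave some of the highest counts. Of 17 on the list 15 were compared and 11 passed. The list summed to 4471 CPM in the arm (4347-4598) against 553 CPM in other cells. In the mesenchyme reference it summed to 1566 CPM (1542-1591), led by Sparc. Col4a1 and Col4a2, the collagen IV chains that start next to each other on opposite strands of chromosome 8 (11198423-11312826 and 11312805-11449287), were at 1242 and 626 CPM in the core. Col4a1 was found in every core member (3 to 130 UMIs, median 43) and after thinning in 80%, against 2.67% of neural reference cells. Mesenchyme was the nearest other source, with 337 CPM of Col4a1, 174 CPM of Col4a2 and 73.0 CPM of Nid1 (322 CPM in the core). The laminin gene Lama4 and the perlecan gene Hspg2 reached 289 and 279 CPM in the core. Sparc, a collagen-binding matrix protein, reached 1413 CPM (2 to 140 UMIs, median 32), which was 10.8 times the level of other cells.

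Markers of other cell types were counted in the same members. Among pericyte markers, Rgs5 and Cspg4 had no UMI in the arm, and Pdgfrb and Kcnj8 were at 2.47 and 1.24 CPM in the core. Abcc9, a channel subunit of pericytes, stood higher, with 0 to 5 UMIs in 24% of core members (12.3 CPM, below the entry limit) against 0.422 CPM in other cells and 5.96 CPM in mesenchyme. After thinning it was found in no core member. Of 19 mural and mesenchymal genes 9 were compared and 4 passed in the arm (sum 614 CPM), but 98.2% of the Col1a1 UMIs came from 1 member outside the core, and in the core 1 of 5 compared passed, Foxc1, while 2 were lower (sum 185 CPM, led by Myl9 at 53.1 CPM). Runx1, which marks endothelium that gives rise to blood, was at 22.7 CPM in the arm, 92% of it from 1 member, and had no UMI in the core. The leucocyte genes Spi1 and Ptprc had none in the arm. Of 20 macrophage identity genes 4 were compared and 3 were at least 4 times higher than in other cells, the actin-bundling Lcp1 (L-plastin, 354 CPM), Cyba (122 CPM) and Laptm5 (32.7 CPM). These 3 also passed in the core, where no other was compared. The list summed to 541 CPM in the arm, and 12 of the 20 were at 0. Neuronal genes were lower, with 9 of 10 compared (of 14) at least 4 times lower than in other cells, and among 11 neural progenitor genes none was higher, with a median of 0.557 times. Globins were at 5416 CPM in the core and 2798 CPM in other cells, but 2 core members held 57.0% of these UMIs, and without them the core was at 2473 CPM. The median globin share of a cell was 0.136% in the core and 0.381% in other cells. Hba-x gave 43.8% of the globin UMIs of the core, at 2370 CPM. Their part in other levels was not tested.

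Beyond the lists, the 25 genes with the largest ratios to other cells (at least 50 CPM, in at least 20% of members) included Cd93, a receptor of angiogenic endothelium (320 CPM in the core, 282-361, against 0.0919 CPM), Clec1b (CLEC-2, best known from platelets), Icam2, Robo4, Myct1, Adgrf5, the guanine exchange factor Rasgrp3, the collagen gene Col15a1 and Vwf (von Willebrand factor). Clec1b was found in 92% of core members (0 to 23 UMIs, median 7) at 271 CPM, which shows that its counts did not come from the 2 members with Itga2b and Gp9 alone. Klhl6 and the Gimap genes Gimap1 and Gimap6, known from lymphocytes, were also among the 25. Ctla2a was at 377 CPM in the arm, but 35.4% of this came from 1 member, and reads of its near relatives may be split between copies.

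Endothelial members varied most in Malat1, the nuclear RNA (variance 139 times the mean after thinning to 2500 UMIs), in Ctla2a (101 times) and in the globins Hbb-y and Hba-a1 (55.1 and 45.4 times), against a median of 1.46 over 190 genes. Single members carried much of this, since 1 cell held 248 of the 430 thinned Malat1 UMIs and 1 cell 123 of the 149 of Ctla2a. In the core Malat1 was at 4.20 times, and Hba-x (36.0) and Hbb-y (20.9) led the genes with at least 50 thinned UMIs. Of the immediate early genes, which dissociation can raise, 5 of 10 compared (of 16) were higher. Junb was found in 92% of core members (0 to 29 UMIs, median 4) at 198 CPM against 9.02 CPM in other cells, and after thinning in 44% against 3.55% of neural reference cells, while Fos (17.3 CPM in the arm, 18.2 CPM in other cells) stood at the same level as elsewhere. The most abundant gene outside the mitochondrial genome was Tmsb4x, an actin-binding thymosin, at 12966 CPM against 3237 CPM in other cells. Cell cycle genes were not higher, with 0 of 31 S phase and 0 of 45 G2/M genes past the mark and medians of 0.619 and 0.641 times. After thinning, Mki67 or Top2a was found in 54.8% of endothelial members (36.0-72.7%, unthinned 87.1%), within whose interval the 58.0% of neural reference cells (57.0-59.0%) lay.

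Macrophage identity genes were the counterpart in the other arm. Of 20 on the list, 19 were compared and all of these were at least 4 times higher than in other cells, with a sum of 4344 CPM (4240-4449) against 50.3 CPM. With that sum in other cells few of the 19 could enter through them, so the count is a description only. The single gene not compared was Cd14, at 3.25 CPM. Tyrobp (DAP12), an adaptor of myeloid receptors, was found in 97.8% of the 46 C1q members with 0 to 40 UMIs (median 17.5) at 949 CPM (886-1015). After thinning it was found in 87.0% of them (73.7-95.1%), in no endothelial member and in 0.0306% of neural reference cells. C1qa and C1qc, the partners of the gate gene C1qb, which with it chose the C1q members, were at 631 and 700 CPM in C1q members (0 to 55 and 0 to 36 UMIs). Of the chemokine receptor Cx3cr1, C1q members held 0 to 34 UMIs (median 6, 379 CPM), and of the lipid receptor Trem2 they held 0 to 15 (median 2.5, 174 CPM).

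Among 16 transcription factors 12 were compared and 8 passed. Spi1 (PU.1), required for myeloid cells, was found in 93.5% of C1q members (0 to 24 UMIs, median 4) at 280 CPM and had no UMI in endothelial members. Runx1, Maf, Mef2c and Cebpb reached 265, 505, 439 and 197 CPM, and Irf8, needed for microglia, reached 94.5 CPM. Sall1, a factor of mature microglia that neural cells also express, was at 24.8 CPM in C1q members and 34.7 CPM in other cells. Sall3 and Zeb2 also did not pass, and Zeb2 stood at 698 CPM beside 240 CPM in other cells.

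Of 15 genes of antibody receptors and complement 9 were compared and 9 passed. The list summed to 4.82 CPM in other cells, so each of these entered through the arm and had to pass. Fcgr3 and Fcgr1, Fc receptors of phagocytes, were at 209 and 106 CPM in C1q members. The anaphylatoxin receptors C3ar1 and C5ar1 were at 151 and 55.1 CPM. Genes of engulfment and lysosomes numbered 17 compared of 20, and 11 passed in the arm and 14 in C1q members. Apoe, the lipid carrier, was found in every C1q member with 1 to 221 UMIs (median 48), and its 3046 CPM (2933-3163) compare with 40.0 CPM in endothelial members and 20.9 CPM in neural reference cells. The proteases Ctsb, Ctsd and Lgmn reached 1182, 698 and 592 CPM. The receptor Mertk, which binds dying cells, and its bridging ligand Gas6 reached 79.9 and 154 CPM. Gpnmb, found in lipid-laden macrophages, had no UMI, and Fabp5 was at 0.721 times the level of other cells.

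Of 18 cytokine and chemokine genes 9 were compared and 9 passed. Ccl3 was found in 78.3% of C1q members (0 to 25 UMIs, median 3) at 237 CPM, while Ccl4, at 172 CPM, was found in 52.2%, with 34.0% of its UMIs from 1 member. Ccl24 and Ccl2 were at 88.9 and 73.2 CPM, Tgfb1 at 135 CPM and Igf1 at 78.8 CPM. The inflammatory cytokines Il1b and Tnf stood at 10.1 and 11.3 CPM, and Il10 and Cxcl2 had no UMI. Of 13 immediate early genes compared between the endothelial core and C1q members none was at least 4 times higher in the core and 3 were lower there, with a median ratio of 1.08. Over all 7955 genes of this comparison 7.39% were higher and 5.92% lower. Against other cells 5 of 12 were higher in the macrophage arm and 6 of 12 in C1q members. The 3 were Fos, Egr1 and Zfp36, at 117, 79.9 and 83.3 CPM in C1q members, and after thinning Fos was found in 30.4% of them, in no core endothelial member and in 5.31% of neural reference cells. Dissociation can raise these genes and some chemokines, and its part was not tested.

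**Figure D3:**
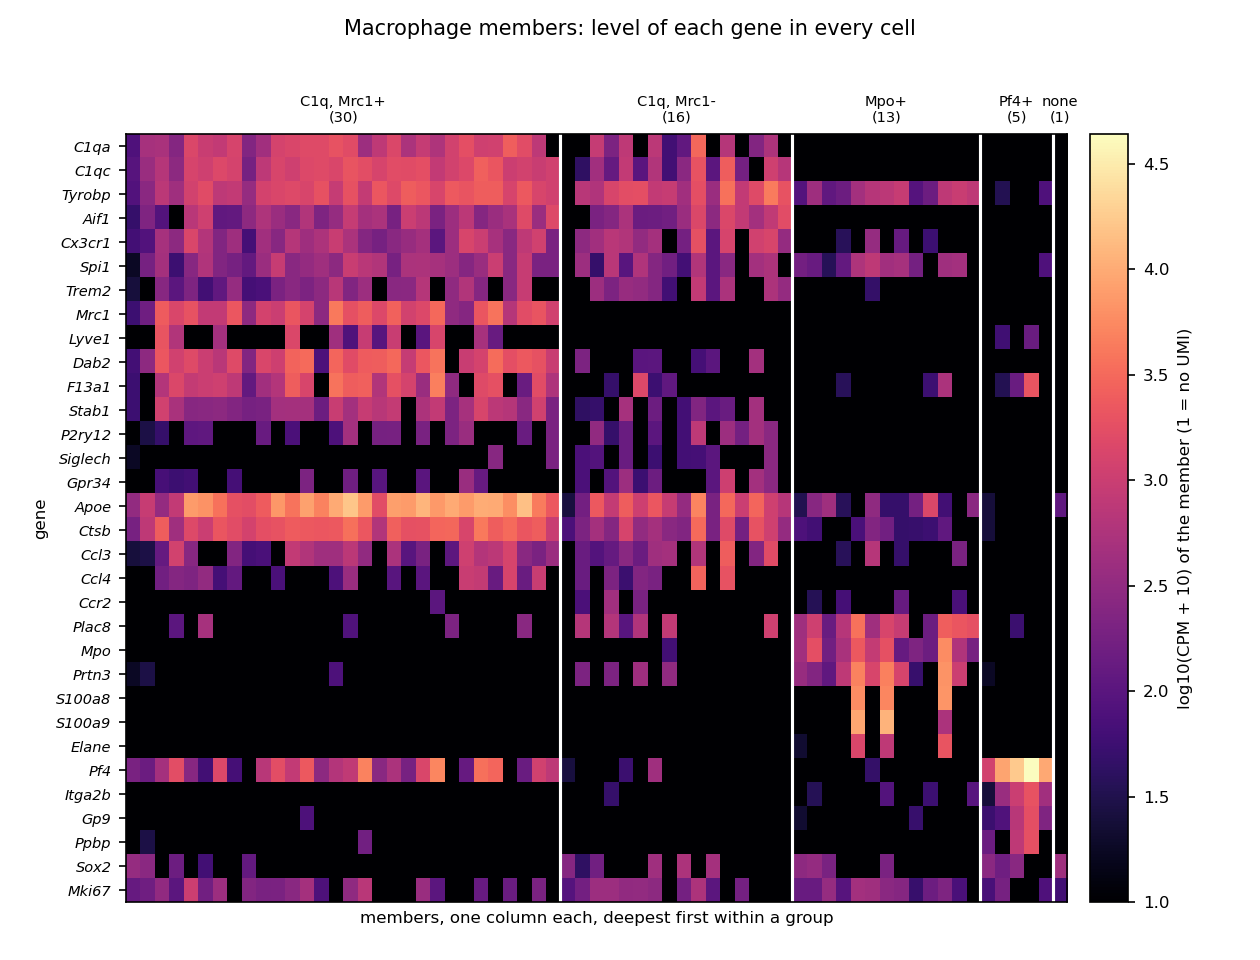
Level of 32 genes (rows) in each of the 65 macrophage members (columns, deepest first within C1q members with Mrc1, C1q members without it, Mpo members, Pf4 members and the cell of none), as log10 of the member's CPM plus 10, where 1 means no UMI. Tyrobp and Spi1 run across the first 3 groups, the C1q genes stop at the Mpo members, and S100a8 and S100a9 appear in 3 Mpo columns.

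The C1q members were not alike in Mrc1, the mannose receptor of border macrophages (chromosome 2, 14229392-14332057). It was found in 30 of 46, with 2 to 124 UMIs (median 16.5), and had no UMI in the other 16. Depths overlapped, at 5300 to 130749 UMIs (median 14094) with Mrc1 and 3041 to 62467 (median 18891) without, and the 3 shallowest C1q members were without it. The part of depth was not tested. The division by Mrc1 was made after its values were seen, and Mrc1 itself is no finding. Scrublet marked 2 of the 30 and 5 of the 16. Of 7607 genes compared between both kinds, 122 were at least 4 times higher in the members with Mrc1 (1.6%) and 125 at least 4 times lower (1.64%).

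Other border macrophage genes went with Mrc1. Against other cells 9 of 9 compared were higher in the arm and 12 of 12 in C1q members. The list summed to 14.3 CPM in other cells, so each gene entered through the members, and these 2 counts are a description only. Of 15 on the list 13 were compared between both kinds, of which 9 were at least 4 times higher with Mrc1, that gene included, and 1, Clec12a, was lower. The endocytic adaptor Dab2 had 0 to 112 UMIs (median 20.5) in members with Mrc1 and 0 to 6 (median 0) in those without, at 1215 and 46.1 CPM. Pf4 was at 762 and 36.2 CPM, and 27 members held it with Mrc1, 3 held Mrc1 alone, 3 Pf4 alone and 13 neither. The scavenger receptor Stab1 was at 386 and 82.4 CPM, and F13a1 (coagulation factor XIII) at 820 and 119 CPM, where 88.9% of the second value came from 1 member. The hyaluronan receptor Lyve1 was found in 13 of the 30 members with Mrc1 and in none of the 16 without, though 1 member held 53% of its UMIs. Of 19 engulfment genes compared 2 passed the mark, among them Gas6 (215 and 36.2 CPM). Apoe was 3.18 times higher with Mrc1, at 12 to 221 UMIs (median 75) against 1 to 92 (median 15.5), and the ranges overlapped.

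Microglial genes leaned the other way, with a median ratio of 0.296 with Mrc1 to without it, and list sums of 597 and 1147 CPM. Of 12 on the list 9 were compared, none was 4 times higher with Mrc1, and Tmem119, Siglech and Olfml3 were at least 4 times lower. These 3 rest on few UMIs, since the 16 members without Mrc1 summed to 303516 UMIs and none held over 3 of Siglech. The deepest of the 16 held 20.6% of that sum and no Tyrobp UMI. Tmem119 also led this list in the mesenchyme reference, and 1 member without Mrc1 held 13 Col3a1 UMIs. The part of such RNA was not tested. Against other cells 4 of 5 genes compared were higher in the arm, with Sall1 as the exception. P2ry12, the purinergic receptor of microglia (chromosome 3, 59216272-59262871, minus strand), was found in 25 C1q members, of which 15 also held Mrc1, while 15 held Mrc1 alone and 6 held neither. Its level was 51.3 CPM with Mrc1 and 119 CPM without, with UMIs of 0 to 6 (median 0.5) and 0 to 14 (median 1). After thinning P2ry12 was found in 17.4% of C1q members (unthinned 54.3%) and 0.715% of neural reference cells. Siglech was at 6.84 and 39.5 CPM and Gpr34 at 29.1 and 95.6 CPM, while Tmem119 was at 5.13 and 29.7 CPM and Olfml3 at 0 and 42.8 CPM. Genes shared by all macrophages did not divide in this way, since of 19 identity genes compared none passed the mark in either direction, and Tyrobp stood at 942 and 962 CPM and Cx3cr1 at 357 and 422 CPM. The C1q chains were less even, and C1qa (median 14 against 1.5 UMIs) and C1qc (18.5 against 2.5) were 740 and 861 CPM with Mrc1 and 422 and 389 CPM without. Plac8 and Ccr2, genes of monocytes, were at 234 and 56.0 CPM without Mrc1 and 27.3 and 1.71 CPM with it. Few members carried these counts, as 3 of the 16 held the 17 Ccr2 UMIs, 11 of them in 1 cell, and Ccr2 was at 21.6 CPM without that cell. For Plac8, 6 of the 16 held 71 UMIs, 91.5% of them in 4 members. Some neural genes led the genes higher without Mrc1, such as Tenm2, where 82.7% of the UMIs came from 1 member.

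**Figure D4:**
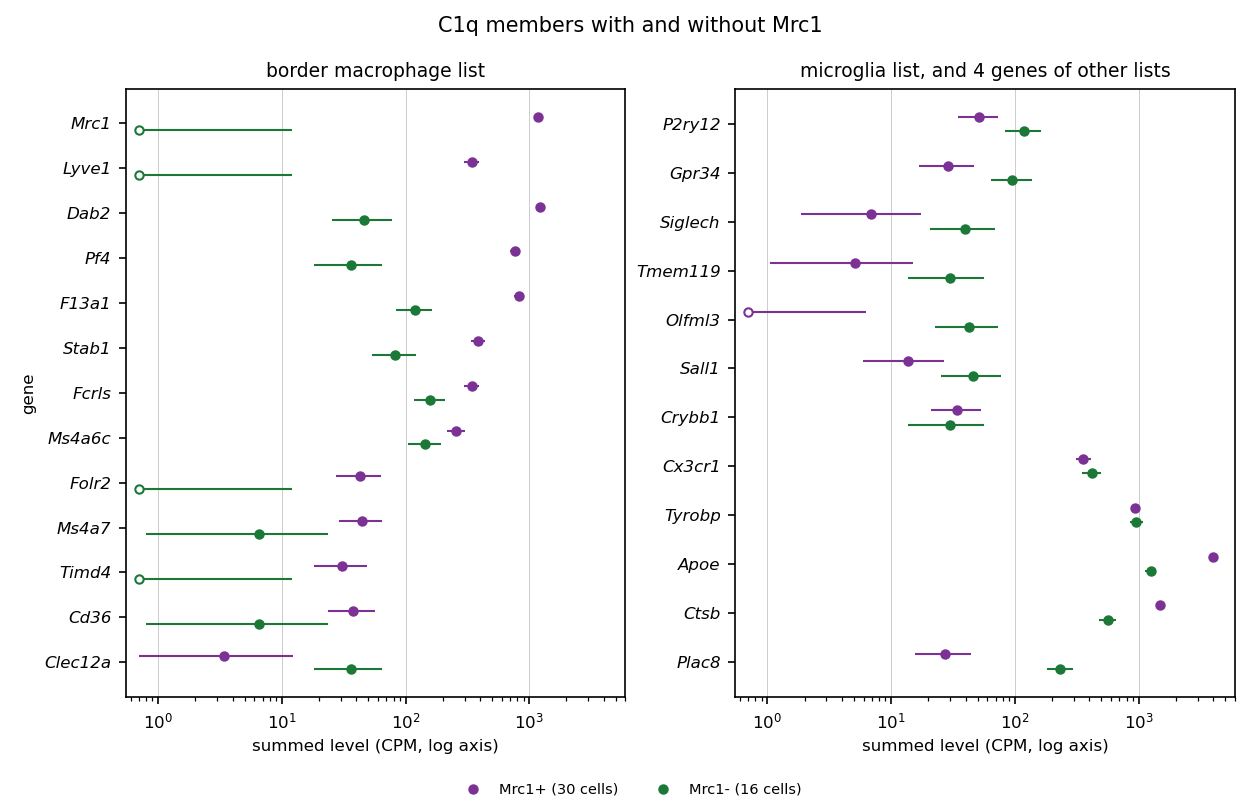
Summed level (CPM, log axis) of border macrophage genes (left) and of microglia genes with Tyrobp, Apoe, Ctsb and Plac8 (right) in the 30 C1q members with Mrc1 and the 16 without, with exact 95% Poisson intervals for counting error, where open circles at the axis edge mark no UMI. Dab2, Pf4 and F13a1 lie apart by more than their intervals, while the points of Tyrobp lie together at 942 and 962 CPM.

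The 13 Mpo members held Mpo and no C1q UMI by the way they were chosen, and 4 of them held Csf1r. Mpo (chromosome 11, 87793581-87804413) had 2 to 111 UMIs (median 18), and Prtn3, proteinase 3 of the same granules, was found in 11 with up to 157. Plac8 was found in 12 (0 to 117, median 24) and Tyrobp in all 13 (2 to 23, median 14). S100a8 and S100a9, calcium-binding proteins of maturing neutrophils, were at 1120 and 1496 CPM, yet all their UMIs came from the same 3 members, with up to 185 and 304 in 1 cell. The neutrophil protease Elane was found in 4, Ms4a3 in 6 and Cebpe in 5, and the mature neutrophil and monocyte genes Ly6g, Retnlg and Ly6c2 had no UMI. The progenitor factors Myb and Gata2 were at 91.5 and 49.5 CPM. The list of other myeloid cells, to which these genes belong, had 9 of 9 compared (of 13) higher in the whole arm but 4 of 4 in C1q members. Between Mpo and C1q members 7659 genes were compared, of which 156 were at least 4 times higher in Mpo members (2.04%) and 299 at least 4 times lower (3.9%). Mpo and the C1q chains chose these kinds and had to differ. Without them 7 of 9 genes of other myeloid cells were higher in Mpo members, 9 of 17 engulfment genes and 7 of 17 identity genes were lower, and Spi1 was at 260 CPM beside 280 CPM.

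The 5 Pf4 members were chosen by Pf4, whose level is no finding, and carried other platelet genes. Of the megakaryocyte list, which holds Pf4, 5 of 5 genes compared (of 9) were higher in the whole arm. The list summed to 1.96 CPM in other cells, so these genes entered through the arm and had to be higher. Pf4 had 134 to 679 UMIs (median 370), Itga2b (integrin αIIb) 2 to 31 (median 15) and Gp9 3 to 28 (median 6). Clec1b and Treml1, platelet receptors, were at 317 and 277 CPM, and Ppbp was found in 3 of the 5. A single member held 58.8% of the UMIs of this kind. Pf4 in the whole arm was therefore at 1426 CPM, of which 30.9% came from 1 cell, while in C1q members alone it was at 514 CPM.

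Over the whole macrophage arm the 25 genes of largest ratio to other cells mixed these kinds. Trem2, Ccl3, Ccl4, Lyve1, Fcgr3, C1qa, C1qc, Adgre1, Aif1 and Fcrls stood beside Mpo, Hp and Pf4, and beside genes common to leucocytes such as Cd52, Srgn and Cd86. The most variable genes were Pf4 (variance 51.9 times the mean after thinning), S100a9 (28.6) and Tmsb4x (23.9), with Apoe (13) and Prtn3 (10.1) further down, against a median of 1.31 over 431 genes. Within C1q members alone Pf4 was at 6.69, while Tmsb4x (16.2) and Apoe (10.2) led with Ftl1-ps1. Ftl1-ps1 was at 15.1 in the arm, but reads of this pseudogene and of Ftl1 may be split between the copies. Ferritin light and heavy chain genes, Ftl1 and Fth1, were among the most abundant, at 4078 and 3236 CPM against 1631 and 947 CPM in other cells. Of genes around Csf1r signalling 4 of 5 compared (of 9) were higher, among them the receptor genes Csf2ra and Csf3r. Lymphocyte genes were not found at a level that could be compared (0 of 11, sum 25.3 CPM), and the neuronal sum was 446 CPM against 1412 CPM in other cells. Cell cycle lists gave 0 of 31 and 0 of 45 genes past the mark, and after thinning Mki67 or Top2a was found in 52.3% of macrophage members (39.5-64.9%, unthinned 81.5%), 54.3% of C1q members, 61.5% of Mpo members (31.6-86.1%) and 1 of 5 Pf4 members.

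Between the arms, 504 of 8053 genes compared were at least 4 times higher in endothelial members (6.26%) and 346 at least 4 times lower (4.3%). The leading genes towards endothelium were Emcn (447 against 1.30 CPM), Cyyr1, Cd93, Kdr (485 against 4.55 CPM), Nid1 and the stretch-gated channel gene Piezo2 (268 against 1.95 CPM). Towards macrophages they were C1qa, Tyrobp, Cd52, Lyz2, Mrc1, Dock2, Ikzf1 and Rac2 (240 CPM against no UMI). Of 20 endothelial identity genes 20 were higher in endothelial members, and of 19 macrophage identity genes compared 18 were lower there, where Lcp1 was the exception. Most of these genes entered through the arm where they are high, and 12 macrophage identity genes had no UMI in endothelial members. The gates also set the arms apart, so these counts are a description only. Mural and mesenchymal genes were higher in 7 of 9, but the member with Col3a1 named above held 98.2% of the Col3a1 and 97.3% of the Col1a2 UMIs of the arm.

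Ligands and receptors were placed side by side. Of 23 vascular receptors 19 were compared in endothelial members, outside the gate, and 15 passed the mark against other cells, while of 22 ligands 14 were compared and 6 passed. Beyond those named, the semaphorin receptor Plxnd1 (364 CPM in the core), the endoglin gene Eng (261 CPM) and the BMP receptor gene Acvrl1 (96.3 CPM) were among the receptors. Vegfa was at 8.65 CPM in the core, 24.1 CPM in neural reference cells and 31.7 CPM in mesenchyme, and Wnt7b was at 25.9 CPM in the core and 65.1 CPM in neural reference cells. Angpt1, the ligand of Tek, had no UMI in the core, whereas its relative Angpt2 was at 42.0 CPM there. The chemokine Cxcl12 was at 18.5 CPM in the core and 142 CPM in mesenchyme. Tgfb1, needed by microglia, was at 103 CPM in the core and 135 CPM in C1q members against 0.714 CPM in neural reference cells, and its receptor Tgfbr2 was at 96.3 and 109 CPM in both. The ligands of Csf1r were sparse in endothelial members, with Csf1 at 2.73 CPM and Il34 at 1.82 CPM.

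**Figure D5:**
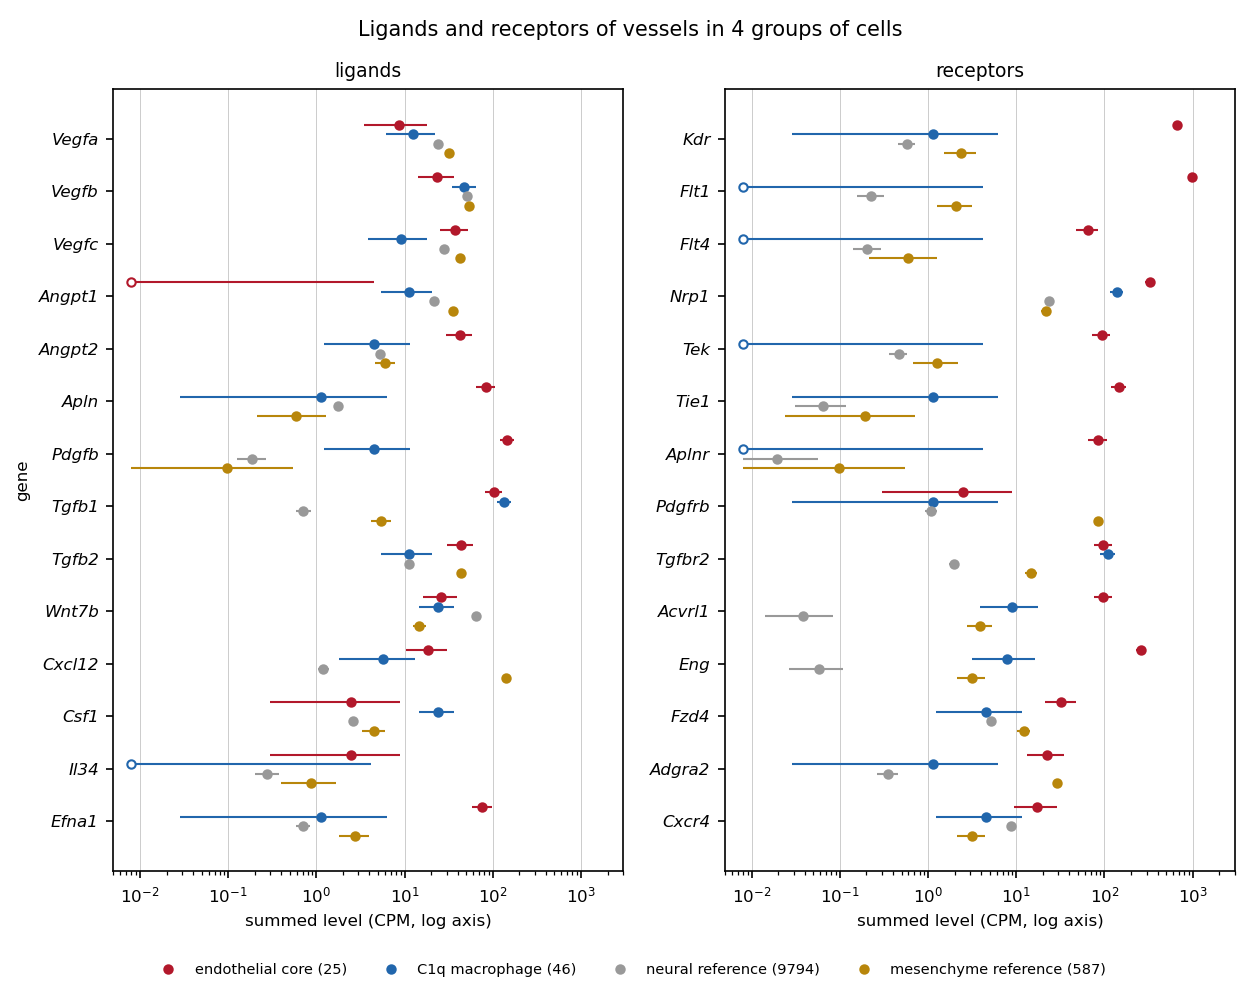
Summed level (CPM, log axis) of 14 ligands and 14 receptors in the endothelial core, the C1q members, the neural reference and the mesenchyme reference, with exact 95% Poisson intervals for counting error, where open circles mark no UMI. Kdr and Flt1 lie at 656 and 971 CPM in the core, far right of the neural points, and Tgfb1 lies to the right in the core and in C1q members alike.

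Promoter windows were read for the 25 leading genes of each arm, because these genes were high together. RefSeq gives windows from 250 bases before to 50 bases after the start site (build GRCm38.p6, the mm10 assembly) for 18 of the endothelial and 16 of the macrophage genes. Both strands were searched for GAGGAAGT (a PU.1 type site), CCGGAAGT (an ETS type site), AACAGGAA (a site that pairs forkhead and ETS letters), which share their GGAA core. They were also searched for the GATA type site AGATAAG. GAGGAAGT was found in 3.69% of all 27025 genes with windows, in 2 of the 18 endothelial genes (Rasgrp3 and Gimap1) and in 3 of the 16 macrophage genes (Mpo, C1qc and Pf4). AACAGGAA was found in 2.96% of all genes, in 4 of 18 (Kcne3, Klhl6, Emcn and Gimap6) and in 1 of 16 (Lyz2). AGATAAG was found in 3.50% of all genes, in 3 of 18 (Myct1, Clec1b and Klhl6) and in 1 of 16 (Fcrls), and CCGGAAGT in 4.31% of all genes and in none of either set. A match is a description of letters. The 250 bases before the start site are shown, 5′ to 3′ along the gene, for the genes with a match whose window touched no annotated exon, with the matches in capitals. They are Myct1 at chr10:5593478-5593727 (plus strand, GATA type), Klhl6 at chr16:19983050-19983299 (minus strand, GATA type and then forkhead and ETS type) and Pf4 at chr5:90772185-90772434 (plus strand, PU.1 type).
Myct1: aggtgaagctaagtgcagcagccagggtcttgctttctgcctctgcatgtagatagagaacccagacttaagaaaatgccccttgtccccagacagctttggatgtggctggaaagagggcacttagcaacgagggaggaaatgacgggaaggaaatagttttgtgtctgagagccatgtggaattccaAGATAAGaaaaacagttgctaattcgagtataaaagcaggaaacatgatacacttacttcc
Klhl6: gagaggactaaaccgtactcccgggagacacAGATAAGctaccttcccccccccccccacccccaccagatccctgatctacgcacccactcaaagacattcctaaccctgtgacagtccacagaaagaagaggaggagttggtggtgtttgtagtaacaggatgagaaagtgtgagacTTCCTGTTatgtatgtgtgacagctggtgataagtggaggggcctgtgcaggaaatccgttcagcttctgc
Pf4: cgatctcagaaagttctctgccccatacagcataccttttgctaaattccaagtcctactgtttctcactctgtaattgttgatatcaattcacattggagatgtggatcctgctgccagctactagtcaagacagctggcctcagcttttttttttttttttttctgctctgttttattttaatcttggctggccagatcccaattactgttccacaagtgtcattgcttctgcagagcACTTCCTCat
The match lay 61 bases before the start site in Myct1 and 10 in Pf4, counted from the first base of the match, and 219 and 71 bases before it in Klhl6. Myct1, a gene of endothelial membranes, was at 73.6 CPM in the endothelial arm, and Klhl6 at 106 CPM.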

How the data were processed

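The authors made the deposited counts, UMIs per gene and barcode without normalisation, from 1 library of telencephalic vesicles. Per the submitters' processing notes they used Cell Ranger 7.1.0 and mm10, and whether intronic reads were counted is not given in the sources used here. The table holds 14283 barcodes, 32286 features and 194821794 UMIs (500-207131 per barcode, median 8503), so most members are deep, but a gene of a few UMIs in a small kind is imprecise.

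Counts were summed over the members and divided by the total (CPM) in Python 3.11.15 with numpy 2.4.6, scipy 1.17.1 and pandas 2.3.3, and figures were drawn with matplotlib 3.10.9. Intervals were exact at 95% (Poisson for sums, Clopper-Pearson for shares, conditional binomial for ratios) and cover counting error only. A group without UMIs was set to 3 UMIs in a ratio. Shares of cells with a UMI were computed after thinning each cell to 2500 UMIs, and unthinned. Doublets were kept, and Scrublet in scanpy 1.11.5 was an alternative. Clusters were not made. The code was tested on simulated data.

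The members and gene lists were chosen with earlier results of these data known. Genes named were those of the gates and lists, the 25 genes per arm of largest CPM ratio to other cells (50 CPM or more, a UMI in 20% of members or more, without gate, globin and mitochondrial genes), the 10 most abundant, the 15 most variable and the 15 of largest ratio between arms each way. Of the symbols listed 1, Ahsp, is not in the gene table. Gene positions are from GENCODE vM21. The kinds of members were set after their values were seen. No test was possible with 1 library, and the levels of the septal library were not compared, since kit and counting differed. Results for some genes are not reported here.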

Additional observations from a re-analysis of the deposited data

Results flagged for a closer look

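Cells of both kinds were also counted outside the members. Below the minimum of 2500 UMIs, 5 barcodes of the telencephalic vesicle met the macrophage rule, of which 3 held 3 or more UMIs of Tyrobp, C1qa and C1qc, and no barcode outside the limits met the endothelial rule. In the septal library, which was not otherwise used, 3 barcodes met the endothelial rule and 14 the macrophage rule, of 5737 within the limits. These were signals in data that the report did not describe.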

How the results depend on the processing

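No paired analysis was possible because there was 1 library and no replicate. Of 306 values under other settings, 270 moved by less than 1.5 times, or stayed within their interval, and 36 moved further. Of these, 18 moved with the CPM minimum. Changes of direction were not checked. With 50 and 5 CPM in place of 20, genes higher in endothelial members (563) numbered 309 and 889, lower ones (152) 64 and 371, higher in macrophage members (535) 269 and 959, lower (147) 62 and 380, higher in endothelial than macrophage members (504) 310 and 806, and the reverse (346) 178 and 585. At 50 CPM the genes past the mark fell in number from 5 to 3 for barrier transport, from 8 to 3 for barrier Wnt, from 5 to 2 for Notch and arterial genes, from 4 to 2 for microglia (9 at 5 CPM) and from 9 to 4 for cytokines. Genes lower than in other cells also moved with the weighting of cells and the choice of members. In endothelial members they numbered 276 with every cell weighted alike, 236 thinned, 294 with a gate minimum of 5 UMIs and 431 in the core. In macrophage members they numbered 614 with cells weighted alike, 630 thinned and 407 without Scrublet's doublets. Thinned, 849 genes were higher in endothelial than macrophage members. In C1q members alone 4 genes of other myeloid cells passed, not 9. The median share of members with a UMI over endothelial identity genes was 32.3% as reported, 53.5% thinned to 5000 UMIs, 75.8% unthinned and 14.5% at 2 UMIs or more, and over macrophage identity genes 34.6%, 51.6%, 68.5% and 16.2%. The core and C1q settings were chosen after seeing the data, as was leaving out members rich in neural RNA, which left 28 endothelial and 63 macrophage members and moved no count past 1.5 times at the neural median. At 1000 CPM of neural genes, which left 22 and 57, lower genes numbered 457 in endothelial and 664 in macrophage members, and 522 genes were higher in macrophage than endothelial members. Under the gates and filters otherwise tried the members numbered 26 to 30 endothelial and 49 to 63 macrophage. Depth limits genes of a few UMIs, and with 1 pool the spread between embryos was not measured.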

Other observations

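Protocadherins and Dbx1, the subject of the study, were on no list, and their values were seen before they were named here. Dbx1 and Pcdh8 were below the entry limit of 20 CPM in the members and in other cells alike, so their levels rest on few UMIs in the members. Dbx1 was at 0 CPM in the endothelial arm and 1.30 CPM in the macrophage arm (5.38 CPM in other cells). Pcdh8 was at 1.82 and 3.90 CPM (6.98 CPM in other cells). Other protocadherins were found in the endothelial core. Pcdh12, known as a vascular protocadherin, was at 64.2 CPM in the core and 0.0216 CPM in other cells, Pcdh17 at 246 CPM against 41.0 CPM, and Pcdh1 at 34.6 CPM against 0.984 CPM. In C1q members Pcdh12 and Pcdh1 had no UMI and Pcdh17 was at 4.50 CPM. Pcdh9 and Pcdh19 were lower in the core, at 35.8 and 33.4 CPM, than in other cells, at 305 and 116 CPM. The Notch ligand gene Jag1 was at 65.5 CPM in the core, 9.0 CPM in C1q members and 16.6 CPM in other cells.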
